A study of Rattus norvegicus with 72 samples.

Results

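The genes described here are 35 genes of the skeletal muscle fibre other than the fast and slow sarcomere isoforms, chosen by name: parts of the thin and thick filaments, the proteins that release and take up calcium, muscle enzymes and a protein turnover gene. A probe was named for 29 of the 35, and those 29 were tested among 38378 genes. Names were found for 15811 genes of the array, and each probe without a name counted as a gene of its own. Shares given for all genes thus include many unnamed probes, whereas each member stands by its brightest probe. No probe was named here for Myoz1, Tpm2, Tcap, Pygm, Casq1 or Ldb3. The 29 genes had 42 of the 41012 probes on the array, and all 42 passed the filter on dim probes.

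The study measured RNA of the medial collateral ligament of the knee on Agilent rat whole-genome arrays, which hybridise a Cy5 and a Cy3 sample together. All animals were male adults of the Sprague-Dawley strain. The groups were fibroblasts grown from collagenase-treated ligaments (5 columns from serial passages, so not separate cultures, and with no passage matched to a column), ligament that had been surgically severed, and ligament of animals given a bilateral sham operation with the ligament left intact. Operated ligaments were taken on days 1, 2, 4, 7, 10 and 14, with 5 severed and 5 sham samples on each day except day 7, which had 3 of each. Unmanipulated ligament (5 animals) and a universal rat reference RNA (3 columns in each dye) completed the 72 columns. Severed and sham animals received the same isoflurane and buprenorphine, per the labels' protocols, and the unmanipulated animals had no procedure.

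A skeletal muscle fibre contracts when actin filaments slide past myosin filaments. A voltage sensor in the membrane opens a calcium channel of the sarcoplasmic reticulum, calcium frees the thin filament for myosin, and a pump returns the calcium. Creatine kinase, enolase and AMP deaminase serve the fibre's energy supply. The medial collateral ligament is made of collagen-rich connective tissue and lies next to muscle, and it holds no skeletal muscle fibres of its own.

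Upstream sequence is shown for 3 members because their levels moved together: Asb2, the member whose level followed the others most closely, Ckm, and Acta1, the actin of skeletal muscle. The 250 bases before the annotated start are printed 5′ to 3′ from RefSeq (build GRCr8), in lower case. Capitals mark the E-box CANNTG, the core bound by myogenic factors such as MyoD, and, in Acta1 alone, also the CArG box and TATAAA, in that order after its E-box.
Asb2, chr6:128275651-128275900, minus strand: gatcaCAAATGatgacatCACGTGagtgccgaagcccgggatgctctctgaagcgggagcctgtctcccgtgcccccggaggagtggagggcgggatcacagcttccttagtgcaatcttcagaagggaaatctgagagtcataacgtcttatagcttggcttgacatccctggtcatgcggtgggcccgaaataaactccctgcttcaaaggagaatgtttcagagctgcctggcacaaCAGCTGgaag
Ckm, chr1:88189211-88189460, plus strand: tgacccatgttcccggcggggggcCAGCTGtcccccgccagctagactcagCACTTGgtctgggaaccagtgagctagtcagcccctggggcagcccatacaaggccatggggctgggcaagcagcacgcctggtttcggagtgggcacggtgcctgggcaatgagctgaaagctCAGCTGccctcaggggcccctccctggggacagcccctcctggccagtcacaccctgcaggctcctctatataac
Acta1, chr19:68784195-68784444, minus strand: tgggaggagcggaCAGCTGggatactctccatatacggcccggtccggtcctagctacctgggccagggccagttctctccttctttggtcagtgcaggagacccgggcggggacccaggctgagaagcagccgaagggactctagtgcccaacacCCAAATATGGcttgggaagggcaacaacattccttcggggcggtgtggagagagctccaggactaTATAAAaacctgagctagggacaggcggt
RefSeq held a promoter for 28 of the 35 members. An E-box on either strand lay in 24 of the 28 members' windows (85.7%) and in 65.5% of all 33469 windows, and 2 or more in 53.6% and 30.8%. The MEF2 motif, searched on both strands by its name, was in 6 members' windows (21.4%) and in 1.68% of all windows. The CArG box was in 7.14% and 1.5%, and TATAAA in 17.9% and 12.9%. The searched motifs may overlap, and these matches describe letters only.

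Levels are normalised log2 intensities with a floor of 5.64, and differences are log2 differences with their standard error (SE). Each probe has its own scale, so a gene's level was compared between columns and not with another gene. Severed day 7 replicate 2 and severed day 4 replicate 4 were left out because they correlated poorly with the other columns over the whole array, and 13 further columns were left out in part. The 3 sham columns of day 7 were nearly identical and were counted as 1 sample. In 4 of 5 cases the sham column of day 1 was closest to the unmanipulated column with the same number, although they lay on different arrays, and whether these 2 groups are independent was not tested. Severed and sham columns of 1 day mostly shared arrays (25 pairs). The file headers and the labels disagree on the dyes of day 2, where groups follow the column names and the dye term follows the headers. With the labels' dyes the day 2 median was 1.77, no comparison changed its count of members past the threshold, and over all genes the mean of the 6 days gave 13 past the threshold in place of 0. Over all columns kept, the median intensity ran from 8 to 567 before normalisation, and the number of arrays limits the precision.

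The mean level of the 29 genes differed widely among ligaments of 1 kind. This mean is given as the log2 difference from the average over all ligament columns. It was taken over the members with a value, so a column left out in part can average fewer than 29. It was 1.92, 1.03, 2.15, 0.68 and -0.16 in the 5 unmanipulated ligaments. Animals that had no operation thus spanned 2.31 on the log2 scale. The range was 4.15 in sham ligament of day 2 and 3.51 in sham ligament of day 4. Fibroblasts, from -4.13 to -3.73, and the reference RNA, from -4.08 to -3.93, lay below every ligament column. The pooled SD within ligament groups was 1.04. In whole tissue, fewer muscle cells and less muscle RNA per cell cannot be told apart.

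**Figure D1:**
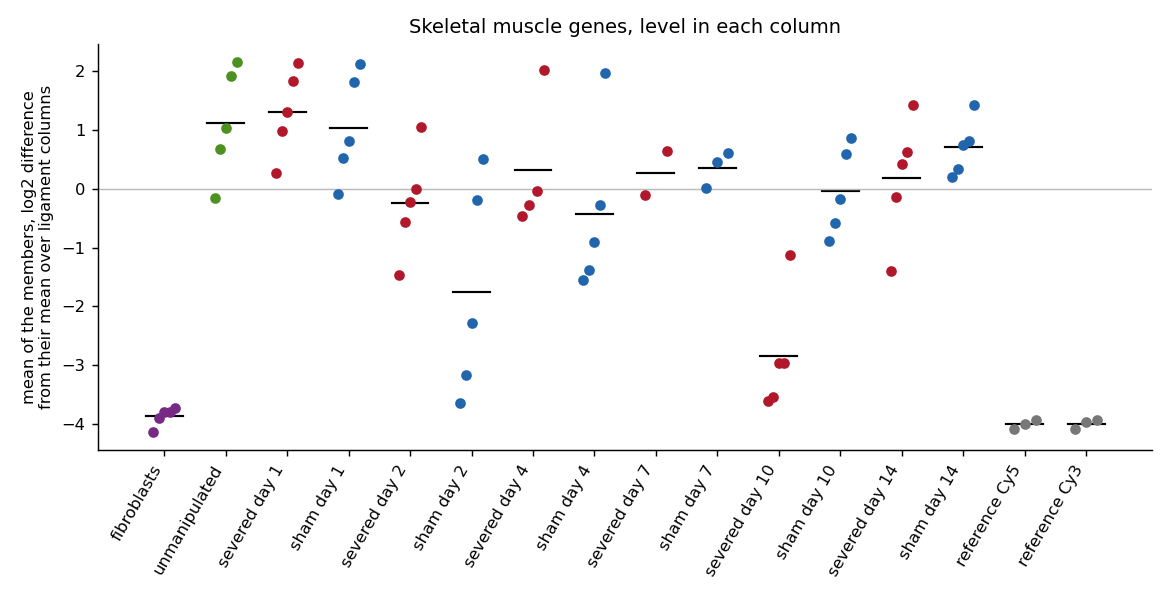
Mean of those of the 29 genes with a value in each column, as the log2 difference from their average over ligament columns. Points are columns and bars are group means, with red for severed, blue for sham, green for unmanipulated, purple for fibroblasts and grey for reference RNA. All 5 severed ligaments of day 10 lie below all 5 sham ligaments of day 10, and 3 sham ligaments of day 2 lie at -2.29 or lower.

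The genes moved together from column to column. Over up to 57 ligament samples, the median correlation between 2 members was 0.63, and 265 of the 406 pairs were above 0.5. Each member was also set against the mean of the others. The correlation was 0.97 for Asb2, a substrate adaptor of a ubiquitin ligase, 0.94 for Abra, an actin-binding protein of striated muscle, and 0.93 for Ckmt2, the mitochondrial creatine kinase. After each group's mean had been removed it was still 0.94 for Asb2. These correlations describe columns that share arrays, dyes and normalisation.

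Some members did not follow. Jph1, which ties the sarcoplasmic reticulum to the surface membrane, had r = 0.07. Casq2, a calcium-binding protein of the reticulum best known from heart and slow muscle, had 0.44 and Car3, a carbonic anhydrase, had 0.46. Mb (myoglobin, r = 0.47) was at the floor in severed day 1 replicate 2 and in sham day 1 replicate 2, which share an array, and at 14.16 or higher in the other columns of that day. Such a value at the floor in both columns of an array occurred 16 times in 8 members. On the array of day 4 replicate 3, Actn3, Pvalb and Pdlim3 were at the floor in both columns while the mean of the members was -0.27 in severed and -0.28 in sham ligament. Whether those spots failed was not tested.

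**Figure D2:**
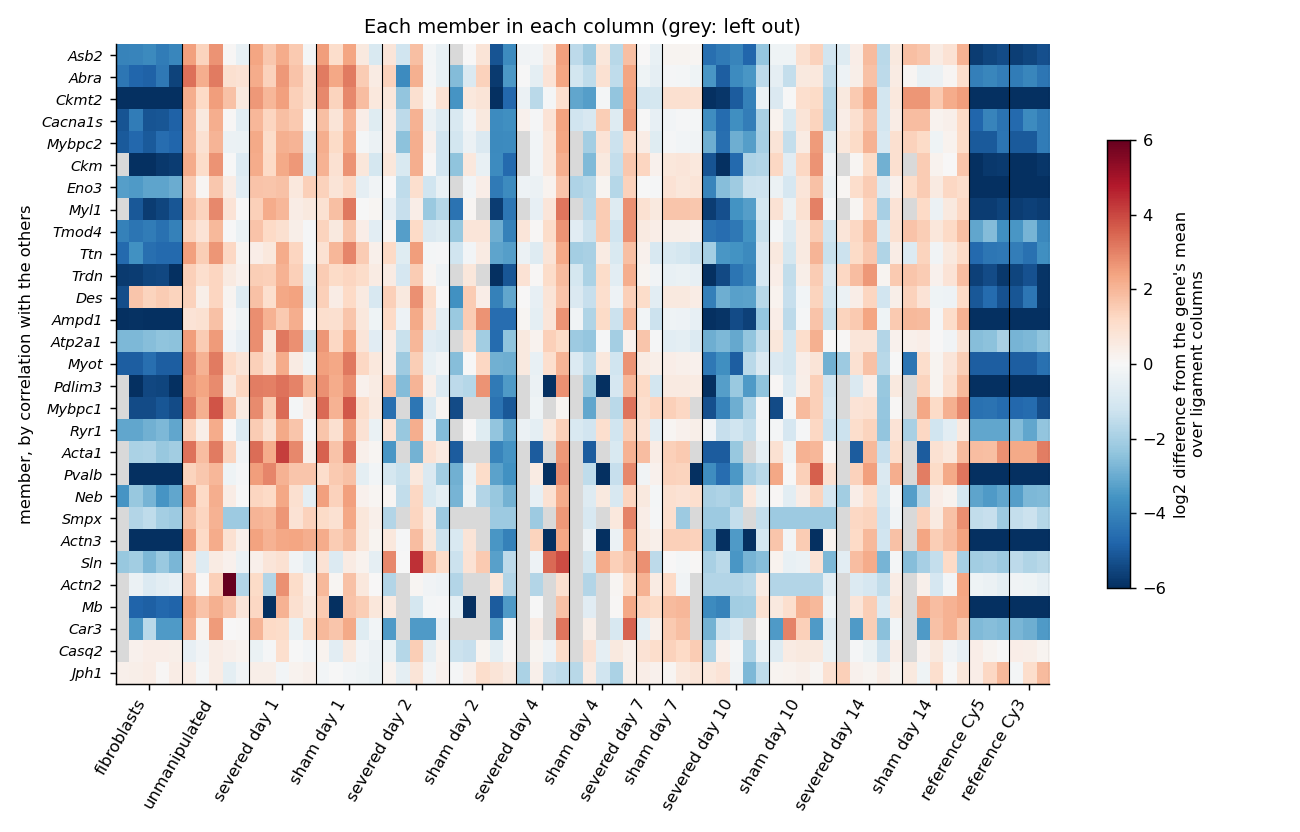
Each of the 29 genes (rows, ordered by correlation with the other members) in each column, as the log2 difference from the gene's mean over ligament columns. Red is higher, blue is lower and grey values were left out. The upper rows darken and lighten together, most of them are blue in severed day 10, and Jph1 in the last row keeps its own pattern.

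The first question of the design was how severed ligament differed from sham-operated ligament, day by day. Over the mean of the 6 days the members had a median difference of -0.14, with 10 above 0 and 19 below. No member passed the threshold of 0.05 (limma, Benjamini-Hochberg adjustment over all genes), where 0% of all genes passed, and none had an unadjusted p under 0.05, against 2.59% of all genes. The median was 0.59 under median scaling, so even its sign depended on the scaling.

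On day 10 most members were low in severed ligament, and the median difference was below 0 in all 5 roles. Of the 29 members, 27 had lower values in severed ligament, with a median difference of -3.19 against 0.03 over all genes. In 14 members all severed samples lay below all sham samples, against 1.48% of all genes in that direction. With the dye term, no member passed the threshold (0% of all genes). An unadjusted p under 0.05 was found in 15 members and in 1.73% of all genes. Without the dye term, 12 members fell (0.289% of all genes lower), and with arrays as blocks as well, a fit chosen after seeing the data, 17 fell (1.24%). With misread stretches kept, likewise chosen later, 1 fell without the dye term. On day 10 severed samples were in Cy5 and sham samples in Cy3, so without that term dye and operation cannot be told apart. Day 14 had the same dyes, and its median difference was -0.58, but 1.90 under median scaling.

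Signal strength differed along with the members on day 10. The median raw intensity was 29, 22, 34, 22 and 220 in severed and 59, 77, 73, 58 and 324 in sham columns. Severed replicate 5, the brightest severed column, was also the one with the highest mean of the members (-1.12, against -3.61 to -2.97 in the other 4). The mean of the members in sham ligament was -0.18, -0.59, 0.59, 0.86 and -0.88. On each of the 5 shared arrays the severed column was lower, with a difference of -0.24 on the array of replicate 5 and of -3.83 to -2.94 on the other 4. The part of signal strength in the difference was not tested. Several members were above the negative controls (their 95th percentile) in few severed columns of day 10. This was 1 of 5 for Ampd1, Cacna1s, Abra, Atp2a1 and Ttn, 2 of 5 for Myl1 and Mybpc2, and 3 of 5 for Asb2, Ckm and Trdn. In sham ligament each of these was above them in 5 of 5. Eno3 and Mb were above them in 5 of 5 severed columns. Where a severed value was not above them, the size of the difference is uncertain. The median difference was -3.09 under median scaling and -3.10 in the authors' value table.

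Asb2 was at 7.58, 7.87, 8.14, 7.33 and 9.80 in severed ligament of day 10. It was at 11.84, 11.87, 13.07, 13.47 and 10.94 in sham ligament. The groups did not overlap, and the severed value nearest the sham samples was that of replicate 5. Its difference was -4.03 (SE 1.27, adjusted p = 1 in limma), and -4.09 (SE 0.78, adjusted p = 0.0026) without the dye term.

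Among the enzymes, Ckm, the cytosolic creatine kinase of muscle, was at 7.63, 6.77, 8.12, 10.93 and 11.04 in severed ligament and at 14.02, 12.09, 14.01, 15.48 and 12.59 in sham ligament. Every severed sample of Ckm was below every sham sample. The difference in Ckm was -4.98 (SE 1.45), and -4.74 without the dye term (SE 0.89, limma adjusted p = 0.0026). Ampd1, the AMP deaminase of muscle, was at 6.96, 7.05, 7.57, 7.33 and 10.62 in severed ligament and between 11.38 and 14.67 in sham ligament. Eno3, muscle enolase, was at 10.29 to 13.01 in severed and 13.23 to 15.98 in sham ligament, with a difference of -2.39 (SE 1.03). Ckmt2 differed by -4.58, Mb by -3.19 and Car3 by -1.0, all with overlapping groups. The second, dimmer probe of Mb (r = 0.53 with the other members, against 0.47 for the first) differed by -0.16, and that of Ampd1 by -0.25. Without the dye term, Ckm, Ckmt2 and Ampd1 passed the threshold among these 6 enzymes and metabolic genes.

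Of the 10 members of the thin filament and Z disc, 8 were lower on day 10, with a median of -3.03. Acta1 was at 5.64, 5.64, 8.33 and 10.09 in the 4 severed samples with a value and between 10.34 and 12.70 in the 5 sham samples. The difference in Acta1 was -3.74 (SE 2.05). Tmod4, which caps the slow-growing end of actin filaments, differed by -3.89 (SE 1.19) and was the member of this group that passed without the dye term (adjusted p = 0.00431). Pdlim3, which binds alpha-actinin, differed by -3.49, Abra by -3.10 and Des, the intermediate filament protein desmin, by -2.95, each with no overlap of groups. Actn3, the alpha-actinin of fast fibres, differed by -3.37 with 1 sham sample at the floor. Myot, which binds actinin at the Z disc, differed by -2.19 and Neb, the nebulin that runs along the thin filament, by -0.82. Actn2, the alpha-actinin of slow and fast fibres (0.35), and Smpx (0.59), a small protein of striated muscle, had differences above 0. Smpx was at the floor in all 5 sham samples. Actn2 had its median at the floor in both groups, with 1 of 5 columns above the negative controls in each.

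All 4 members of the thick filament and titin group were lower, and 3 of them passed without the dye term. Myl1, a light chain of fast myosin, was at 5.64, 6.06, 7.76, 8.03 and 10.28 in severed ligament. It was at 12.18, 10.95, 12.25, 14.35 and 11.25 in sham ligament, with no overlap. Its difference was -4.65 (SE 1.34), and -4.64 (limma adjusted p = 0.00123) without the dye term. Mybpc2 and Mybpc1, the fast and slow myosin-binding proteins C, differed by -3.40 and -2.59, with -0.07 at the second Mybpc1 probe. Ttn, the spring protein titin, had 7 probes, and their differences on day 10 ran from -2.60 at the brightest probe to -0.36. That brightest probe stands for Ttn here (r = 0.90 with the other members), and the other 6 correlated with the members at 0.11 to 0.60.

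Of the 8 calcium genes all had differences below 0 on day 10, from -4.70 to -0.22. Trdn, triadin of the release complex, was at 6.62, 7.38, 8.43, 8.80 and 11.80 in severed ligament. It was at 13.21, 11.33, 13.16, 14.31 and 11.90 in sham ligament, so severed replicate 5 overlapped the sham samples. Its difference was -4.14 (SE 1.27), and -4.18 (adjusted p = 0.00203) without the dye term. Pvalb, the calcium buffer parvalbumin, differed by -4.70 and Atp2a1, the calcium pump of fast fibres, by -3.37. Cacna1s, the voltage sensor, also differed by -3.37, and its channel partner Ryr1 by -0.22. Pvalb, Atp2a1, Cacna1s and Trdn passed the threshold without the dye term. Sln, sarcolipin, which inhibits the pump, differed by -1.59, Jph1 by -1.20 and Casq2 by -0.73. The other 2 probes of Trdn differed by -3.20 and -1.26 on day 10, the second probe of Cacna1s by -0.02 and that of Ryr1 by -1.0.

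**Figure D3:**
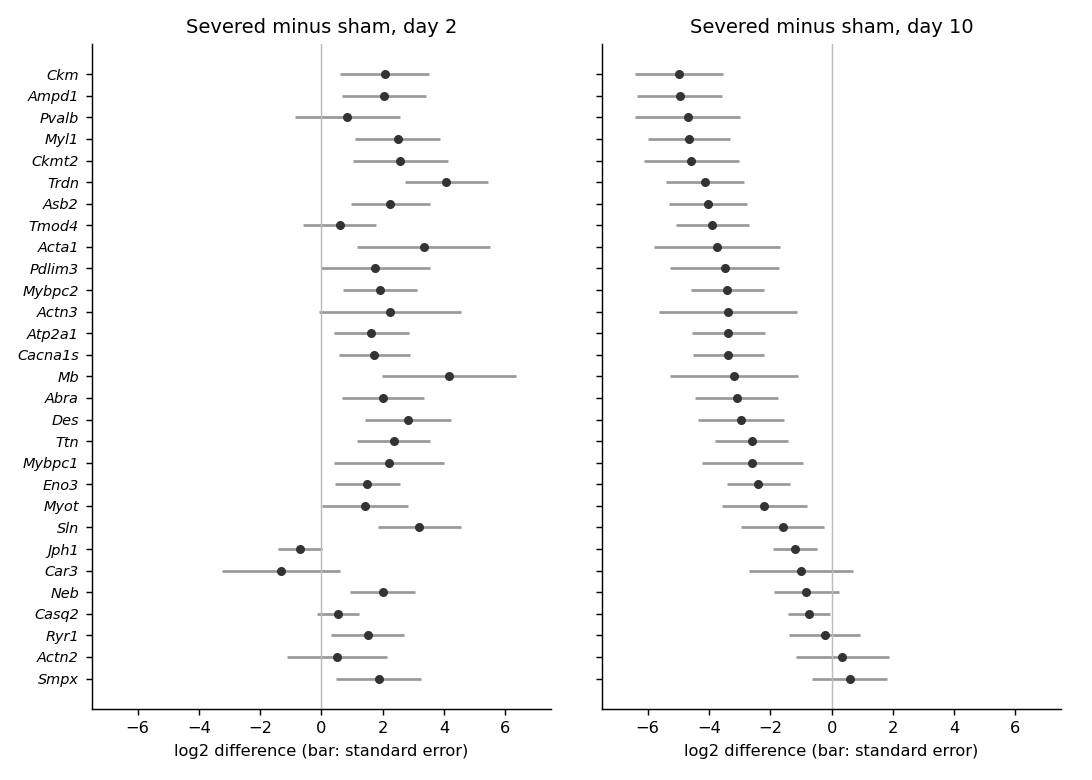
Severed minus sham difference of each of the 29 genes on day 2 (left) and day 10 (right), on a log2 scale, from the limma fit with the dye term. Points are estimates and bars are standard errors. On day 2, 27 points lie above 0, and on day 10, 27 lie below 0.

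On day 2, the day whose dyes are given in conflicting ways, the direction by the column names was the opposite. In 27 of 29 members the severed samples were higher, with a median difference of 2.00 against 0.03 over all genes, and no member passed the threshold (0% of all genes). An unadjusted p under 0.05 was found in 3 members and in 2.44% of all genes. Acta1 was the 1 member whose groups did not overlap (0.732% of all genes in that direction), with 4 severed and 3 sham values. None of those 3 sham values was above the negative controls. Without the dye term Trdn rose (0.386% of all genes higher), and with arrays as blocks as well 8 members rose (2.35%). The means of the members were -0.01, -1.46, 1.06, -0.23 and -0.56 in severed ligament and -2.29, -0.19, 0.51, -3.64 and -3.17 in sham ligament. The difference thus came with 3 low sham columns, while the other 2 lay within the severed range. Those 3 columns, sham replicates 1, 4 and 5, had median raw intensities of 218, 228 and 137, against 8 to 73 in the severed columns. The sham columns of replicates 2 and 3 had 32 and 169. Several columns of day 2 were also poorly read. The median rank correlation with the median column was 0.43, 0.59, 0.40, 0.50 and 0.76 in sham replicates 1 to 5. It was 0.81, 0.45, 0.77, 0.58 and 0.77 in severed replicates 1 to 5. Sham replicates 1, 2 and 3 and severed replicate 2 were left out in part. Of the 3 low sham columns, replicate 5 had the highest correlation (0.76). The part of signal strength and of poor reading was not tested. In the authors' value table, which is keyed by sample, the day 2 median was 2.79. If the labels' dyes and the headers' channels both held, severed and sham columns of day 2 would be exchanged and the sign would turn. Which source is right was not tested.

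Trdn was at 13.29, 11.77, 14.31, 12.93 and 12.47 in severed ligament of day 2. It was at 13.45, 5.64 and 7.64 in the 3 sham samples with a value. The sham samples included 1 as high as the severed ones. The difference was 4.07 (SE 1.35), and 4.04 (SE 0.90, limma adjusted p = 0.0184) without the dye term. These values are from the brightest of 3 Trdn probes, and the other 2 differed by 0.96 and -0.26 on day 2. Mb differed by 4.16 (SE 2.19), and its second probe by 0.56. Sln differed by 3.19 (SE 1.35) and Des by 2.82 (SE 1.41), and groups overlapped in Mb, Sln and Des. Jph1 (-0.70) and Car3 (-1.32) were the 2 members with differences below 0.

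The other days gave no member past the threshold with or without the dye term. On day 1 the median difference was 0.30 (20 of 29 above 0), but -1.54 under median scaling, and 0% of all genes passed. On day 4 it was 0.69 (24 of 29 above 0), but -0.07 in the authors' value table, with 0% of all genes past the threshold. Severed replicate 5 was the highest severed column of day 4, with a mean of the members of 2.02 against -0.47 to -0.03 in the other 3. Within arrays, the severed column was higher on all 4 shared arrays of day 4, by 1.36, 1.08, 0.02 and 2.93. The 2.93 was between severed replicate 5 and sham replicate 4 (-0.91), which shared an array. Sham replicate 5, on the array of a severed column that was left out, was at 1.97. On all 5 arrays of day 1 the severed column was also the higher, by 0.01 to 0.78. Severed samples were in Cy3 and sham samples in Cy5 on both days. On day 7, with 2 severed columns and 1 sham sample, it was -0.28, but 2.23 under median scaling and 2.37 in the authors' value table (0% of all genes past the threshold). Day 7 values did not overlap in 7 members higher and 12 lower in severed ligament, against 33.7% and 38.6% of all genes. On day 14 it was -0.58 (23 of 29 below 0, with the sign turned under median scaling as above), and 0.00521% of all genes fell and 0.00782% rose. Groups of day 14 did not overlap in 2 members, lower in severed ligament, against 1.72% of all genes in that direction. The unadjusted p was under 0.05 in no member on days 1, 4, 7 and 14, against 1.19%, 0.357%, 0.87% and 3.83% of all genes.

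The change in the severed minus sham difference between days 1, 2 and 4 and days 7, 10 and 14 was tested directly. The early difference was the higher in 28 of 29 members, with a median of 2.38 against -0.02 over all genes. No member passed (0% of all genes) and 1, Ckmt2 at 4.28 (SE 1.89), had an unadjusted p under 0.05, against 0.326% of all genes. With no dye term and arrays as blocks, 6 members passed upward (Asb2, Ckm, Ckmt2, Eno3, Ampd1 and Myl1), against 0.0782% of all genes. The dye assignment of days 1 and 4 was the reverse of that of days 7, 10 and 14. Day 2 went with the late days by the headers and with the early days by the labels. Without a dye term, a change between early and late days thus cannot be told apart from dye. The median was 0.34 under median scaling and 0.74 in the authors' value table.

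The second question was how far operated ligament differed from unmanipulated ligament. The comparisons that follow share the 5 unmanipulated samples. Sham ligament of days 1 and 4 was set against unmanipulated ligament, all in Cy5. Of the 29 members, 25 were lower in sham ligament, the median difference was -0.72, and none passed (0.00261% of all genes lower, 0% higher). Only Pdlim3 (-2.01, SE 0.96) had an unadjusted p under 0.05, against 4.14% of all genes. For sham day 4 alone, chosen after seeing the data because of the likeness of sham day 1 to unmanipulated ligament, the median was -1.24 and no member passed, while the number of all genes past the threshold was 74, against 1 for both days. In the same-numbered columns, the mean of the members was 1.82, 0.81, 2.12, 0.53 and -0.09 in sham ligament of day 1. It was 1.92, 1.03, 2.15, 0.68 and -0.16 in unmanipulated ligament, a difference of at most 0.22 in any number. In severed ligament of day 1, on the same arrays as sham ligament of that day, it was 1.83, 0.99, 2.14, 1.31 and 0.27. Whether these groups are independent of each other was not tested.

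Severed ligament of days 7, 10 and 14 had lower levels in 28 of 29 members than unmanipulated ligament, with a median of -1.88 against 0.03 over all genes. Past the threshold, 5 members fell: Abra (-3.31, SE 0.72, limma adjusted p = 0.0103), Ttn (-2.63), Myot (-2.95), Ckmt2 (-3.19) and Asb2 (-2.59). The other 6 Ttn probes ran from -1.43 to 1.01. Among all genes 0.399% fell and 0.25% rose, and the counts of members and genes were the same without the dye term, which does not enter here. An unadjusted p under 0.05 was found in 20 members and 9.79% of all genes. Abra was at 10.89 and 11.17 on day 7, between 6.46 and 9.84 on day 10 and between 9.86 and 13.15 on day 14. In unmanipulated ligament it was at 14.72, 13.58, 14.52, 12.36 and 12.27. In every member the 2 groups overlapped. Without severed day 10 the median was -0.74 and no member passed, with 137 of all genes past the threshold against 249 with that day. Leaving out 1 replicate number at a time gave 0 to 13 members, against 61 to 391 of all genes. The 0 came without replicate 1 (92 genes) or replicate 3 (61 genes) and the 13 without replicate 5 (391 genes). Fits with arrays as a random block gave 3 members (0.435% of all genes lower without the dye term).

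Fibroblasts grown from ligament were compared with unmanipulated ligament, again all in Cy5. Of the 29 members, 24 fell and none rose, with a median difference of -5.64 against -0.02 over all genes. Among all genes 4.99% fell and 4.85% rose (5.06% fell with arrays as blocks), and 26 members had an unadjusted p under 0.05, against 21% of all genes. Ckmt2 averaged 6.58 ± 0.28 (SD, n = 5) in fibroblasts and 14.73 ± 0.77 (SD, n = 5) in unmanipulated ligament. This was a difference of -8.16 (SE 0.95, limma adjusted p = 1.5e-09). The 5 passages entered the fit as separate samples, so the p-values of this comparison carry no spread between cultures. Actn3 averaged 7.08 ± 0.13 (SD, n = 4) in fibroblasts and 14.93 ± 0.90 (SD, n = 5) in unmanipulated ligament. Trdn was at 7.04, 7.09, 7.26, 7.33 and 6.23 in fibroblasts and at 14.22, 13.81, 14.06, 13.33 and 13.06 in unmanipulated ligament. The groups did not overlap in these 24 members, against 9.83% of all genes.

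In 7 members no fibroblast column was above the negative controls, so at most a bound can be given, from the lowest signal above them. Pvalb was at least 92.8-fold lower in fibroblasts, Myl1 at least 76.5-fold, Myot at least 68.1-fold and Mybpc2 at least 31.7-fold. Mybpc1 was lower by at least 6.85 on the log2 scale and Ryr1 at least 7.31-fold. For Smpx no bound is given, because 3 of 5 unmanipulated columns were above the controls and the lowest was at the floor. Smpx did not pass the test (adjusted p = 0.0919). In 10 members all fibroblast columns were above the controls, among them Eno3, at 11.04 ± 0.15 in fibroblasts and 14.85 ± 0.98 in unmanipulated ligament (SD, n = 5 each).

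The 5 members that did not pass were Des, Casq2, Jph1, Actn2 and Smpx. Des was at 12.84 to 13.16 in 4 fibroblast columns and at 6.2 in the other, a column with 43 array rows left out, against 10.75 to 12.90 in unmanipulated ligament. Casq2 averaged 7.84 ± 0.06 (SD, n = 4) in fibroblasts and 7.54 ± 0.39 (SD, n = 5) in unmanipulated ligament. Jph1 averaged 8.66 ± 0.16 in fibroblasts and 8.34 ± 0.45 in unmanipulated ligament (SD, n = 5 each). Actn2 differed by -2.53 (SE 0.98, limma adjusted p = 0.097), and in unmanipulated ligament it ranged from 5.64 to 15.69. Acta1 stood apart in the reference RNA. It was at 12.46, 12.42 and 13.35 in reference columns in Cy5, close to the 10.43 to 13.86 of unmanipulated ligament, and at 8.34 to 8.77 in fibroblasts.

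**Figure D4:**
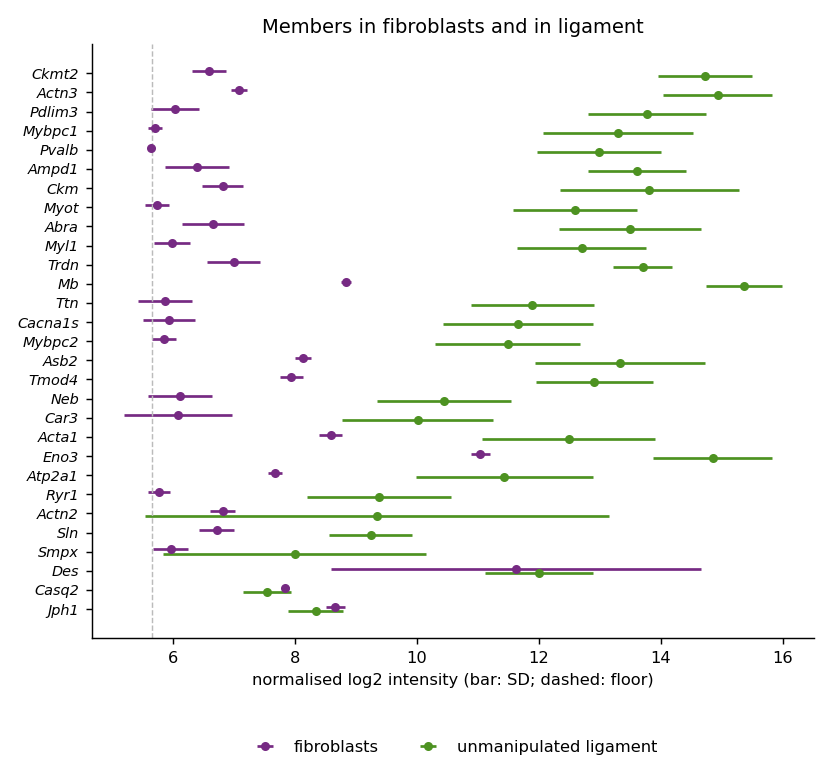
Mean level of each of the 29 genes in fibroblasts (purple) and in unmanipulated ligament (green), in normalised log2 intensity. Bars are SD over up to 5 columns and the dashed line is the floor. Most genes lie far apart, whereas Des, Casq2 and Jph1 lie at like levels in both.

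Other genes show what moved with the members. The 13 measured sarcomere isoform genes followed them with r = 0.85 over 57 ligament samples. On day 10, 12 of 13 were lower in severed ligament (median -2.04), among them Tnni2, a fast troponin I, at -3.31 and Tpm1, a tropomyosin, at -3.30, and none passed. Against unmanipulated ligament, Myh1, a fast myosin heavy chain, fell in severed ligament of days 7, 10 and 14 (-3.11, limma adjusted p = 0.0313). In fibroblasts, 10 of 13 fell, with Myh1, Myh4, Myh7, Tnnt1, Tnnc1, Tnnc2, Tnni1, Tnni2, Myl11 and Tpm1 between -9.56 and -2.44.

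Genes of satellite cells and myoblasts, the muscle precursors, followed more weakly (r = 0.56, 11 measured). On day 10, 3 of the 11 had differences above 0 and 8 below, from -2.72 to 0.43 (median -0.50), and none passed. Myh3, the embryonic myosin, had the lowest difference, and Myod1, a myogenic factor, differed by -1.49. Myog and Chrng fell in fibroblasts (-2.52 and -2.02). The 8 cardiac genes followed the members to a like degree (r = 0.53). After each group's mean had been removed, r was 0.50 for the cardiac genes and 0.43 for the satellite cell and myoblast genes. Of the 8 cardiac genes, Myh6 and Ankrd1 fell in fibroblasts (-5.95 and -3.05). On day 10 these 2 differed by -1.54 and -1.94, and the 8 ranged from -1.94 to 0.06 (median -0.88, 2 above 0) with no call.

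Genes of the ligament itself did not follow the members (r = -0.10 over 8 genes). Their mean ran from -0.81 to 1.45 in severed ligament of day 10 and from -1.41 to 1.07 in sham ligament. On day 10, 7 of the 8 had differences above 0 (median 0.31, up to 1.23), the opposite direction to most members, and none passed. Thbs4, an extracellular protein of tendon, differed by 0.21, and Col1a1, a chain of collagen I, was the 1 gene below 0 (-0.56). In fibroblasts Tnmd, Fmod, Thbs4 and Comp fell by 5.20 to 7.25. The correlation with the members was 0.25 for fat cell genes, 0.18 for smooth muscle genes and -0.01 for nerve genes. For red blood cell genes it was -0.14, and -0.44 after each group's mean had been removed. In severed ligament of day 10 the mean of the red blood cell genes was -1.71 in replicate 5, the column with the highest members, and 0.03 to 1.73 in the other 4. Red blood cell genes were above 0 in all 5 measured on day 10 (median 1.43), with Hbb at 2.08 and Alas2 at 1.43 and no call. The fat cell genes had 3 differences above 0 and 3 below, from -0.63 to 0.82, with Cfd at -0.21 and Fabp4 at -0.54. The smooth muscle genes also had 3 above and 3 below, from -0.74 in Tagln to 0.99, with Actg2 at -0.37. Of the nerve genes, 4 were above 0 and 3 below, with Pmp22 at 0.37 and Gap43 at 0.11. None of these 3 lists had a call on day 10. Their part in the members' differences was not tested. In fibroblasts, Tagln and Lmod1 rose (3.40 and 1.36), while Adipoq, Cfd, Fabp4, Gap43 and the red blood cell genes Hba-a1, Hbb, Alas2, Ahsp and Slc4a1 fell.

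**Figure D5:**
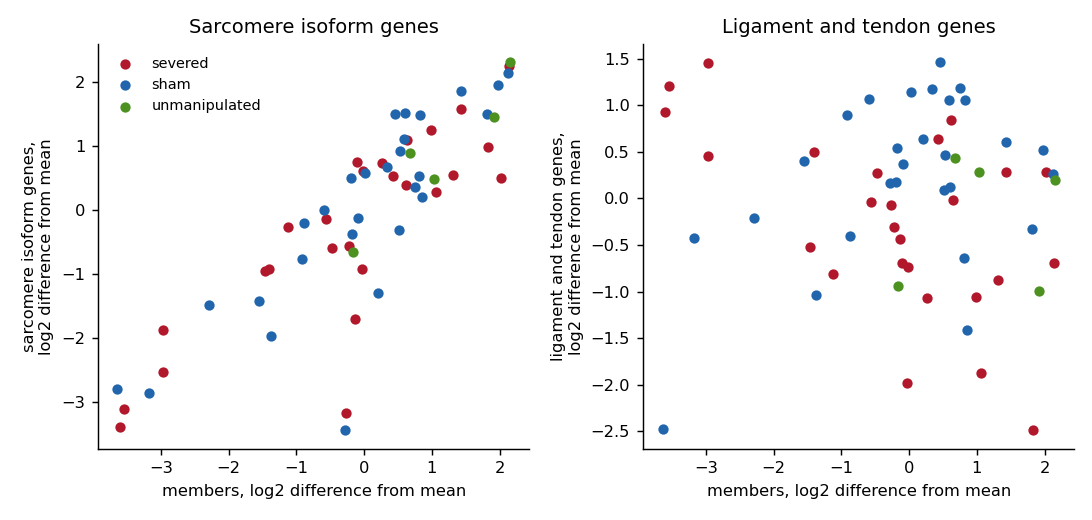
Mean of the sarcomere isoform genes (left) and of the ligament and tendon genes (right) against the mean of the 29 members, each as the log2 difference from its average over ligament columns. Genes with no value in a column are left out of its mean. Each point is a ligament column (red severed, blue sham, green unmanipulated). The left panel rises with the members (r = 0.85) and the right panel shows no trend (r = -0.10).

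Outside the members and the sarcomere isoforms, the named genes whose levels were most like the members' mean were Nrap, an actin-anchoring protein of striated muscle (r = 0.95 over 56 samples), Synpo2l, an actin-associated protein (0.94 over 55), Pfkm, muscle phosphofructokinase (0.92 over 56), Rtn2, a reticulon (0.90 over 57), and Hrc, a calcium-binding protein of the reticulum (0.88 over 57). They were picked by that correlation over columns that include day 10, so their direction there is a description only. On day 10 the severed minus sham difference was -2.84 in Nrap, -3.58 in Synpo2l, -1.86 in Pfkm, -1.95 in Rtn2 and -2.54 in Hrc, with none past the threshold. In fibroblasts, Nrap, Synpo2l, Pfkm and Hrc fell, and Rtn2 (-1.97, limma adjusted p = 0.0646) did not pass.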

How the data were processed

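RNA of 72 samples was measured on 43 two-colour arrays, 29 of which carried 2 samples. The deposited intensity values are the median foreground minus background of 1 scanner channel, per the file headers and the series text. The authors' log2 value table of the same arrays has no stated scaling and served as an alternative. Upstream normalisation is not given in the sources used here. Control spots (2917 of 44289) were left out. Stretches of a column whose rank correlation with the median column, as a running mean over 5 of the array's 103 rows, was under 0.35 were set to missing (7.71% of values, 15 columns, 2 of them whole). Intensities were then quantile-normalised, floored at 50 and turned to log2. Probes above 100 in at least 3 columns were kept, and the brightest probe on average stood for a gene. A RefSeq gene table (GRCr8) named 18547 probes, of 15811 genes. Each probe without a name was kept as a gene of its own in the tests and in the shares of all genes. A probe counted as detected where its raw intensity exceeded the 95th percentile of its column's negative controls. Spot flags, which showed the shared arrays, were not used for the 5 fibroblast columns.

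Group means and a dye term, which only the reference RNA can estimate, were fitted in limma 3.58.1 (R 4.3.3) to 68 samples, with Benjamini-Hochberg adjustment over all genes. P-values measure the spread between these samples. Same-numbered severed and sham samples share arrays on most days. The correlation of their deviations from the group means was 0.34 or higher on days 1, 2, 4, 10 and 14, and -0.17 and -0.16 on day 7. The numbers do not follow the arrays on day 7. On day 4, severed replicate 5 shared an array with sham replicate 4, and the lowest correlation by shared array was 0.56. These correlations are not those of the members' mean. For that mean, the correlation of deviations between the 2 columns of an array was 0.15 over 24 array pairs. On simulated data of 10865 genes, the day 10 comparison recovered 19% of log2 changes of 2 and 92.5% of changes of 4. The severed days 7, 10 and 14 comparison recovered 89% and 100%. The simulation took the spread of genes with no missing value and drew independent noise for columns of 1 array. On day 10 the median SE of all genes was 0.73, below each member's SE given above for that day. These shares thus do not carry over to the members. The members and all lists were chosen with earlier results of these data known. Named are every member with a probe, the 2 brightest genes and any gene past the threshold of each other list, and the 5 other genes most correlated with the members. Alternatives covered dye, background, scaling, floor, filter, misread stretches, blocks and left-out replicates.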

Additional observations from a re-analysis of the deposited data

Results flagged for a closer look

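In severed ligament of day 10, the mean of the members was -1.12 in replicate 5, and -2.97 in the nearest of the other 4. Its gap was 0.742 of the group's range, so it stands apart from its group, on the side of the sham samples. Trdn was at 12.19 in 1 severed ligament of day 1, with the nearest at 14.20, and at 6.23 in 1 fibroblast column, with the nearest at 7.04. Eno3 was at 14.87 in 1 severed ligament of day 1, with the nearest at 15.67. The mean of the members was tested in 12 groups, and chance flags about 1 group in 20. Over all 29 members, 22 of 310 pairs of member and group stood apart in this way.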

How the results depend on the processing

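Without the dye term, members past the threshold numbered 1 on day 2 and 12 on day 10. With no dye term and arrays as random blocks, a fit added after seeing the data, they numbered 8 on day 2, 17 on day 10, 6 for early against late days and 3 for severed days 7, 10 and 14 against unmanipulated ligament. With no dye term and misread stretches kept, also added, 1 passed on day 10. Dye and operation cannot be told apart within a day, and dye was not balanced between the early and late days.

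Against unmanipulated ligament, severed days 7, 10 and 14 gave 5 members. Over all genes 249 passed. The members' count was 19 with median scaling (2639 of all genes), 19 with the authors' value table (2123), 1 with a floor of 20 (118), 3 with arrays as random blocks, 3 with the 2 poor columns left out and all other stretches kept, and 0 to 13 without 1 replicate number (61 to 391 of all genes). Without severed day 10, added after seeing the data, it was 0 (137 of all genes) and the median -0.74. The cause was not tested. The replicate block, which pairs samples by number, gave 5 members there, 24 in fibroblasts and 0 in each severed against sham comparison, and changed no other call.

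The median difference of the members moved under median scaling to -1.54 (day 1), 3.72 (day 2), 2.23 (day 7), 1.90 (day 14) and 0.34 (early against late days), with its sign turned on days 1, 7 and 14. That scaling shifted the median of all genes by up to 0.26 in size (-0.26 for early against late days). With the value table, it moved to 2.37 on day 7 and 0.74 for early against late days. That table shifted all genes by -0.84 on day 14 and 1.37 in fibroblasts. In fibroblasts the median was -6.72 with median scaling, -4.57 with normexp, -3.92 with every probe tested and -4.52 with misread stretches kept, with or without the dye term.

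Without 1 replicate number, the day 10 median ran from -3.84 to -2.85 and the day 2 median from 1.27 to 2.93. For single members, over all 29 and every alternative, 90 results gained a call and 52 lost one, all in the same direction, and 404 results with no call turned sign.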
